A study of Mus musculus with 4 samples.

Results

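The genes described here are 10 signalling genes of the JAK/STAT pathway in brain microglia: the 4 Janus kinase genes (Jak1, Jak2, Jak3 and Tyk2), the transcription factor genes Stat3, Stat5a, Stat5b and Stat6, and the feedback genes Socs1 and Socs3. They were chosen by name, and all 10 were found among the 49993 genes of the count tables. RNA came from CD11b+ microglia, purified with magnetic beads from brains of mice aged 10 months. Every mouse carried APP/PS1, transgenes that cause amyloid to collect in the brain and make the animal a model of Alzheimer's disease. In the AD group (n = 2 libraries) the genotype was APP/PS1+ asrij+/+, and in the AD/KO group (n = 2 libraries) it was APP/PS1+ asrij-/-, with asrij (Ociad1) deleted constitutively. The labels name no promoter for the transgenes, no litter, sex or batch, and do not say whether a library pooled animals or whether libraries came from separate mice. P-values therefore measure only the spread between these libraries. The study asked what asrij does in microglial activation, and the comparison here is of the RNA of the pathway's own components between the genotypes.

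Janus kinases sit on the inner tails of cytokine receptors and are switched on when a cytokine brings the receptor chains together. They phosphorylate STAT proteins, which then pair, enter the nucleus and bind DNA. Among the genes that STATs turn on are the SOCS genes, whose proteins inhibit the kinases or the receptors and so close a feedback loop. In microglia the pathway carries signals from interferons, the interleukin-6 family, interleukin-10 and colony-stimulating factors. Much of STAT control acts through phosphorylation, which RNA levels do not record.

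The libraries held from 13102622 to 19810076 counts. The deleted gene Ociad1 stood at 50.2 and 63.4 CPM (read counts relative to the TMM-scaled library total) in AD and at 38.9 and 32.1 CPM in AD/KO, so its transcript was lower in the libraries labelled AD/KO but still present. AD and AD/KO are used below as the names on the labels. All 13 microglia markers had reads in every library, and the list averaged 10.11 and 9.62 log2 CPM in AD (replicates 1 and 2) and 10.09 and 8.28 log2 CPM in AD/KO. The neuron list ran the other way, at 4.20, 5.85, 5.64 and 7.22, as did the astrocyte list, at 6.39, 7.64, 7.68 and 8.96. AD/KO replicate 2 thus had the lowest microglia level and the highest neuron and astrocyte levels. AD replicate 2 had the highest neutrophil level, 7.79 log2 CPM against 4.48 to 4.98 in the other libraries, and 1391 reads of Xist, an RNA made from an inactivated X chromosome, against 3 to 15. The monocyte list was at 3.89 and 4.94 log2 CPM in AD and at 2.72 and 2.85 in AD/KO, and its gene Ccr2 at 39.8 and 39.95 CPM and at 10.3 and 6.13 CPM. The border macrophage list was at 2.55 and 2.28 in AD and at 1.69 and 1.41 in AD/KO, and the B cell list at 1.34 and 1.12 and at 0.28 and 0.11. These 3 lists were lower by mean log2 CPM in both AD/KO libraries, as were the genes Jak2, Stat3 and Socs3. Not every gene of the lists was lower in both. The groups overlapped for Vcan (monocyte, log2 fold change −0.187), Pf4 and Cbr2 (border macrophage, 0.115 and −0.70) and Cd79b (B cell, −0.49). The part of these lists in the results below was not tested. In bulk RNA, fewer cells of a type and less RNA per cell cannot be told apart.

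The sequence in front of the RefSeq start used for the feedback gene Socs3 is shown. Socs3 had the largest difference in size of the 10 and was the only gene with a match to a STAT motif. The sequence comes from RefSeq's promoter windows (300 bases from 250 before each start, GRCm38.p6), which covered all 10 genes with 12 windows. The stretch begins 200 bases before that start and ends 86 bases before it. Of the 250 window bases before the start, 77 lie in annotated exons. The Socs3 start used, 117969366, lies inside the span of the gene, which reaches 117970336 on the minus strand. The stretch and its match are thus inside the annotated gene and not in front of its outer end. Capitals mark the match.
Socs3, chr11:117969452-117969566, minus strand: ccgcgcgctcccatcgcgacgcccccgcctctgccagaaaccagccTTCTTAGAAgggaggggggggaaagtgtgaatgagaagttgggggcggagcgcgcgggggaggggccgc
Both strands were searched for TTCNNNGAA, the spacing that STAT dimers generally bind, and for TTC and GAA with any 4 bases between them, the wider spacing associated with STAT6. Of the 10 genes only Socs3 held TTCNNNGAA in its window, with the match TTCTTAGAA starting 154 bases before the start, and 8.30% of all 32851 promoter windows held it. The wider spacing was in 0 of the 12 windows and in 6.95% of all windows. The Stat5b starts used, 100850581 and 100822570, likewise lie inside its span, which reaches 100859004 on the minus strand. Sequence before the outer ends of Socs3 and Stat5b was not searched. A match describes letters in these windows and is no measure of binding.

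A pair of coding sequences bears on how far Stat5a and Stat5b counts can be separated. The transcripts of these neighbouring genes aligned at 90.9% identity over 2332 positions of the alignment. Their coding sequences share a run of 324 identical bases (coding bases 571 to 894 of both), and the stretch where that run begins is shown from coding base 541 to 630, with the base that differs in capitals.
Stat5a: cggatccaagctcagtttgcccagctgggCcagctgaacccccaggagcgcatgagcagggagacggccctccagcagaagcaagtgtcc
Stat5b: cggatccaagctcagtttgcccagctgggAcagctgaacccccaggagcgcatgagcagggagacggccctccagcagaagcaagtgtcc
Of all 100-base words of the Stat5a coding sequence, 11.6% also occur in that of Stat5b, and of all 50-base words 26.1%. How reads that match both genes were counted is not given in the sources used here, so the split between them is uncertain.

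Mean levels were lower in AD/KO for 9 of the 10 genes (52.8% of all genes had a log2 fold change below 0) and higher for Socs1, but after scaling to the microglia markers they were lower for Socs3 alone and higher for the other 9. The median log2 fold change of the 10 was −0.38, against −0.05 for all 21439 genes tested. All 10 genes entered the test. In edgeR's quasi-likelihood test, with p-values adjusted by Benjamini-Hochberg, 0 of the 10 and 0 of all genes (0% called) had an adjusted p under 0.05. At an unadjusted p under 0.05 there were 0 of the 10, against 5.48% of all genes, and DESeq2 called 0 of the 10 (0.44% of all genes). With the replicate number as a block, a pairing that the labels do not state, 1 of the 10 (Socs3) had an adjusted p under 0.05, against 20.2% of all genes. The groups did not overlap, with AD/KO lower, for Jak2, Stat3 and Socs3 (3 of 10, against 21.7% of all genes) and with AD/KO higher for Socs1 (1 of 10, against 20.3%). These shares are close to the background. Groups of 2 and 2 cannot give an exact two-sided permutation p below 0.333 for a single gene.

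What the genes shared was the order of the libraries. In 9 of the 10, AD replicate 1 was the highest library and AD/KO replicate 2 the lowest, an order found in 30.7% of all genes tested. It was not particular to these genes. The same order was found in 42 of the 84 other pathway genes tested, among them 18 of 29 receptor chains and 7 of 10 further regulators. By mean log2 CPM the microglia list had it too. AD/KO replicate 2 was the lowest library in 42.4% of all genes. The 2 libraries of a group often differed more than the group means did. Without AD/KO replicate 2 the median log2 fold change was −0.03, 6 genes were lower and 4 higher. Without AD replicate 1 it was −0.16, and without AD/KO replicate 1 it was −0.58.

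**Figure D1:**
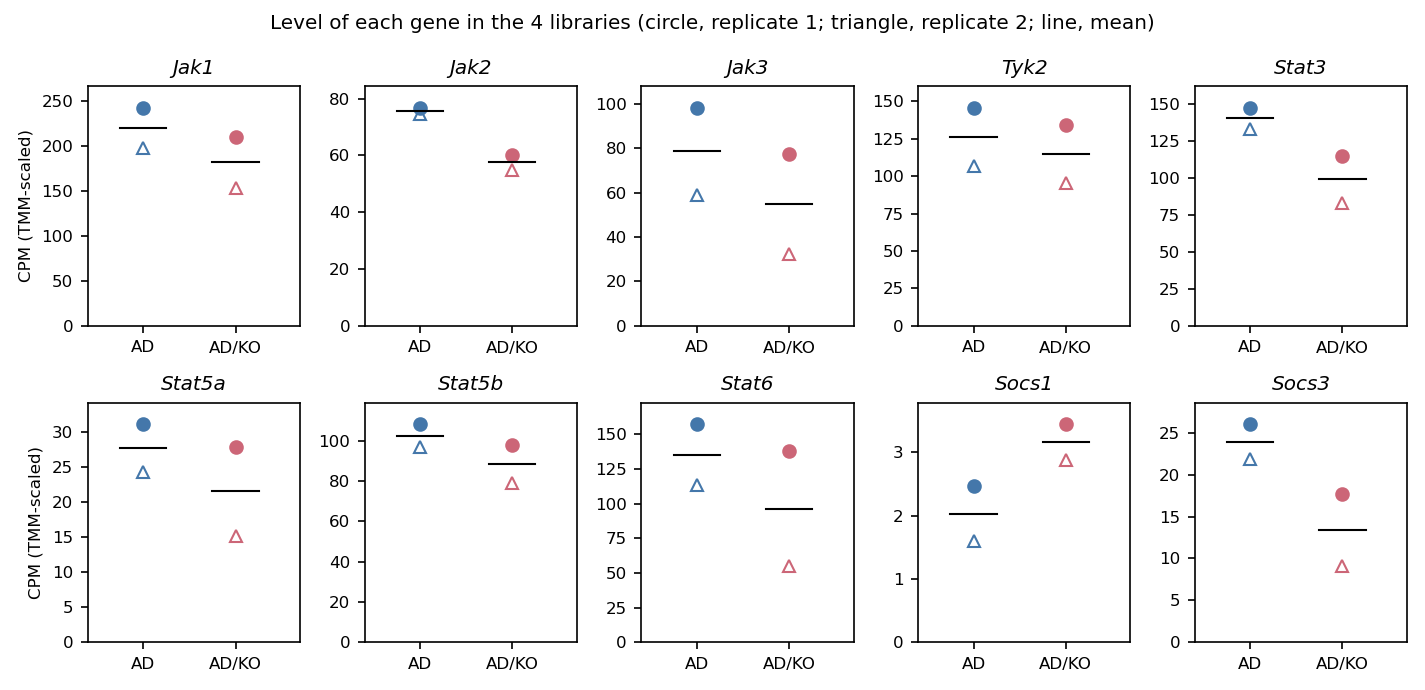
Level of each of the 10 genes in the 4 libraries, in CPM after TMM scaling, with AD in blue and AD/KO in red; circles are replicate 1, triangles replicate 2 and lines the group mean. In 9 genes AD replicate 1 is the highest point and AD/KO replicate 2 the lowest, while Socs1 is higher in both AD/KO libraries.

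The Janus kinases came first. Jak1 (gene ID 16451, chromosome 4, 101151974 to 101265282), used by interferon, gp130 and common gamma chain receptors, was at 242 and 197 CPM in AD and at 210.0 and 153 CPM in AD/KO. The AD/KO values straddled the lower AD value, so the groups overlapped. Its log2 fold change was −0.27 (SE 0.34), and ran from −0.47 without AD/KO replicate 1 to −0.05 without AD/KO replicate 2. Tyk2 (gene ID 54721, chromosome 9, 21104068 to 21131393) is the partner of Jak1 at receptors for type I interferons and for the interleukin-10 family. It was at 146 and 107 CPM in AD and at 134 and 95.5 CPM in AD/KO. The groups overlapped here too, and the log2 fold change of −0.14 (SE 0.34) was the smallest of the 10. It was 0.10 without AD replicate 1 and 0.10 without AD/KO replicate 2.

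Jak2 (gene ID 16452, chromosome 19, 29251803 to 29313095), which serves the receptors for growth hormone, erythropoietin, GM-CSF and interferon gamma, was at 76.8 and 74.7 CPM in AD and at 60.2 and 55.0 CPM in AD/KO. The libraries of each group lay close together and the groups did not overlap. The group means were 75.7 ± 1.49 CPM (SD, n = 2) and 57.6 ± 3.67 CPM (SD, n = 2), so AD/KO stood at 76.1% of AD. The log2 fold change of −0.39 (SE 0.26) had a 95% interval of −1.06 to 0.28 and an adjusted p of 0.653 (edgeR quasi-likelihood, Benjamini-Hochberg). With any 1 library left out it stayed between −0.41 and −0.32, and with scaling to the microglia markers it was 0.49, against 0.78 for the median of all genes.

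Jak3 (gene ID 16453, chromosome 8, 71676383 to 71690577) is the kinase of the common gamma chain Il2rg and is largely restricted to blood and immune cells. It was at 98.2 and 59.0 CPM in AD and at 77.6 and 32.5 CPM in AD/KO. It spread more than any other of the 10, with a 3.02-fold range over the 4 libraries. Within AD/KO, replicate 2 was at 0.419 of replicate 1, a larger gap than that between the group means (70.0%). The log2 fold change was −0.51 (SE 0.52), and it ran from −1.22 without AD/KO replicate 1 to −0.0082 without AD/KO replicate 2. Of the annotated exon bases of Jak3, 404 (9.15%) are shared with Insl3 on the same strand, and how reads there were assigned is not given in the sources used here.

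Among the STATs, Stat3 (gene ID 20848, chromosome 11, 100886806 to 100939594), the main effector of interleukin-6 and interleukin-10 signals, was at 147 and 133 CPM in AD and at 115 and 83.1 CPM in AD/KO. Both AD/KO libraries were below both AD libraries. The group means were 140.1 ± 10.1 CPM (SD, n = 2) and 99.1 ± 22.6 CPM (SD, n = 2), and AD/KO stood at 70.7% of AD. The log2 fold change of −0.50 (SE 0.31) had a 95% interval of −1.30 to 0.30 and an adjusted p of 0.653 (edgeR quasi-likelihood, Benjamini-Hochberg). It ran from −0.70 to −0.27 with 1 library left out.

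Stat6 (gene ID 20852, chromosome 10, 127642955 to 127660987), the effector of interleukin-4 and interleukin-13, was at 157 and 113 CPM in AD and at 138 and 55.0 CPM in AD/KO. AD/KO replicate 1 lay between the AD libraries, and AD/KO replicate 2 was at 0.398 of AD/KO replicate 1, the lowest such ratio of the 10. The log2 fold change was −0.49 (SE 0.51). It was −1.25 without AD/KO replicate 1 and 0.04 without AD/KO replicate 2, so the direction rested on that library.

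Stat5a and Stat5b, which carry signals from GM-CSF and other growth factors, lie next to each other on chromosome 11. Stat5a (gene ID 20850, 100859351 to 100885169) was at 31.1 and 24.3 CPM in AD and at 27.9 and 15.1 CPM in AD/KO, with a log2 fold change of −0.36 (SE 0.41). Stat5b (gene ID 20851, 100780731 to 100859004) was at 108 and 96.6 CPM in AD and at 98.0 and 79.2 CPM in AD/KO, with a log2 fold change of −0.21 (SE 0.28). In both genes AD/KO replicate 1 lay between the AD libraries. Without AD/KO replicate 2 the log2 fold change was 0.02 for Stat5a and −0.05 for Stat5b. Stat5b spread least of the 10 genes, with a 1.36-fold range over the 4 libraries.

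The feedback genes differed in direction. Socs3 (gene ID 12702, chromosome 11, 117966079 to 117970336), which inhibits gp130 receptors and their kinases and is itself induced by STAT3, had 358 and 356 reads in AD and 340 and 168 reads in AD/KO. Scaled, it was at 26.0 and 21.9 CPM in AD and at 17.7 and 9.12 CPM in AD/KO. Both AD/KO libraries were below both AD libraries, and the mean in AD/KO (13.4 ± 6.09 CPM, SD, n = 2) was 56.1% of that in AD (23.9 ± 2.90 CPM, SD, n = 2). The log2 fold change of −0.83 (SE 0.43), the largest in size of the 10, had a 95% interval of −1.94 to 0.27. The unadjusted p was 0.109 and the adjusted p 0.653 (edgeR quasi-likelihood, Benjamini-Hochberg). It ran from −1.34 without AD/KO replicate 1 to −0.42 without AD/KO replicate 2. After scaling to the microglia markers it was −0.19, and the groups overlapped, with AD/KO replicate 2 the highest library.

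Socs1 (gene ID 12703, chromosome 16, 10783808 to 10785536), a direct inhibitor of Janus kinases best known for limiting interferon signals, had 34 and 26 reads in AD and 66 and 53 reads in AD/KO. It was at 2.47 and 1.598 CPM in AD and at 3.44 and 2.88 CPM in AD/KO. Both AD/KO libraries were above both AD libraries, also after scaling to the microglia markers. The log2 fold change was 0.64 (SE 0.54), with a 95% interval of −0.75 to 2.03 and an adjusted p of 0.681 (edgeR quasi-likelihood, Benjamini-Hochberg). It lay between 0.42 and 0.97 with 1 library left out. With scaling to the microglia markers it was 1.41, against 0.78 for the median of all genes. Its reads were few, so counting error adds more to this gene than to the others.

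**Figure D2:**
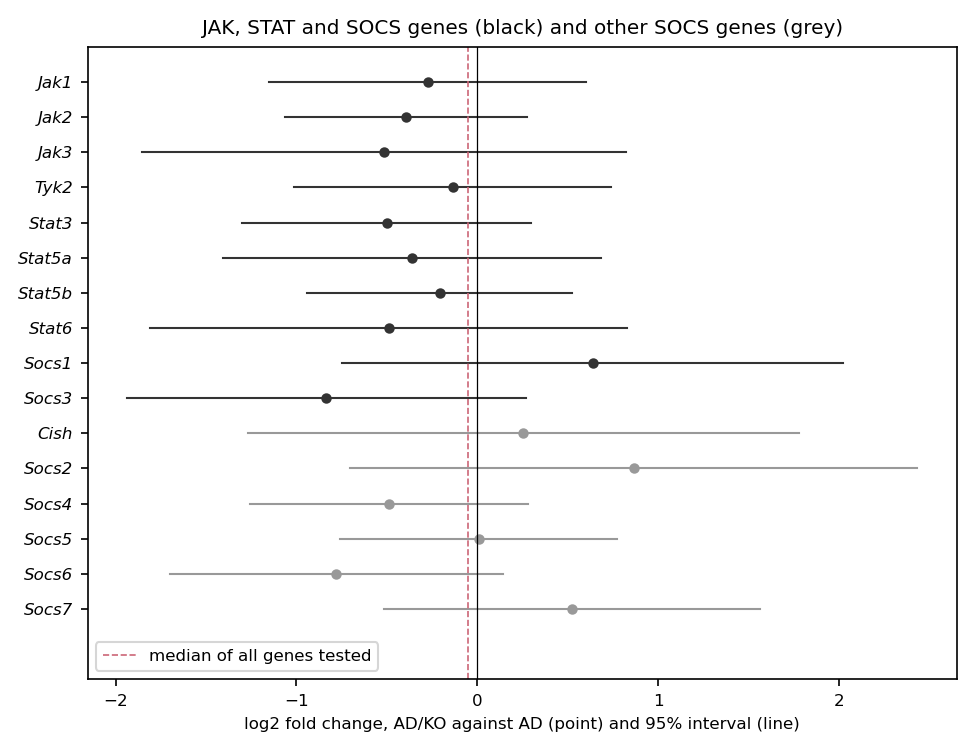
Log2 fold change of AD/KO against AD (point) with its 95% interval (line) for the 10 genes in black and for the other SOCS genes in grey; the dashed line is the median of all genes tested. Every interval includes 0, from Socs3 at −0.83 to Socs1 at 0.64 among the 10. Scaling to the microglia markers moves 8 of the 9 negative values above 0, and the median of all genes to 0.78.

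Ratios taken within a library do not depend on the scaling between libraries, but they can depend on the mix of cells. Per kilobase of transcript, Socs1 was at 0.140 and 0.108 of Socs3 in the AD libraries and at 0.287 and 0.466 in the AD/KO libraries. Socs3 relative to Stat3 was at 0.431 and 0.402 in AD and at 0.376 and 0.268 in AD/KO. Both ratios separated the groups, in opposite directions, with no test beyond the permutation limit given above. They are not separate results, because Socs3 is the divisor of the first and is itself divided in the second. The share of all gene pairs whose ratio separates the groups was not computed. Both ratios lay furthest from the AD values in AD/KO replicate 2, the library with the lowest microglia level. The part of cell mix in them was not tested. Stat5a relative to Stat5b was at 0.401 and 0.351 in AD and at 0.397 and 0.267 in AD/KO, which overlapped.

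On the same scale, each kinase was taken as a share of the sum of the 4. Jak1 made up 42.2% to 45.1% over the libraries, Tyk2 24.3% to 28.5% and Jak2 11.97% to 16.4%. Jak3 made up 19.0% and 14.8% in AD and 17.6% and 10.6% in AD/KO. Of the sum of Stat3, Stat5a, Stat5b and Stat6, Stat6 made up 45.0% and 40.1% in AD and 45.8% and 31.6% in AD/KO. The share of Stat5b was 21.1% and 23.3% in AD and 22.2% and 31.1% in AD/KO. For Jak3, Stat6 and Stat5b the library apart from the rest was AD/KO replicate 2, the one with the lowest microglia level.

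By level per kilobase over the 4 libraries, Jak1 was highest at 40.9 ± 7.49 CPM per kilobase (SD over 4 libraries), above 93.3% of the tested genes that had a length. Stat6 (30.7), Tyk2 (24.9), Stat3 (19.2), Stat5b (17.2), Jak3 (15.1) and Jak2 (13.3 CPM per kilobase) followed. The range over the libraries of each overlapped that of its neighbour in this order. Compared within the same library, Jak1 was above Stat6 and Tyk2 above Stat3 in every library, and the other neighbours changed order. Socs3 (7.32) lay below Jak2 in all libraries and overlapped Stat5a (6.20). Socs1, at 1.501 ± 0.449 CPM per kilobase, was lowest and below Stat5a in every library. Its length was taken as that of the RefSeq gene.

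The microglia list, like 9 of the 10 genes, was lowest in AD/KO replicate 2. Its replicate 1 libraries were nearly level, with AD higher by mean log2 CPM and AD/KO higher by summed CPM (19757 and 20196). From AD/KO replicate 1 to replicate 2 the microglia list dropped to 0.284 of its level, and the neuron list was 2.99 times and the astrocyte list 2.43 times as high. All 10 genes were lower in replicate 2, at 0.398 (Stat6), 0.419 (Jak3), 0.514 (Socs3), 0.543 (Stat5a), 0.713 (Tyk2), 0.723 (Stat3), 0.730 (Jak1), 0.808 (Stat5b), 0.836 (Socs1) and 0.914 (Jak2) of replicate 1. None was reduced as far as the microglia list. From AD replicate 1 to AD replicate 2 the microglia list was at 0.712 of its level. The part of cell composition in the differences between the groups was not tested.

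With libraries scaled to equal levels of the microglia list, the median of all genes moved to a log2 fold change of 0.78 and that of the 10 genes to 0.41. Relative to all genes, the 10 genes were then at −0.37, against −0.33 with the usual scaling, and 9 of the 10 were below the median of all genes under both. On this scale AD/KO replicate 1 was the lowest library and AD/KO replicate 2 the highest for the same 9 genes. Stat3, for instance, stood at 98.2 and 124 in AD and at 77.6 and 198 in AD/KO. The AD/KO libraries thus lay on both sides of the AD libraries.

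**Figure D3:**
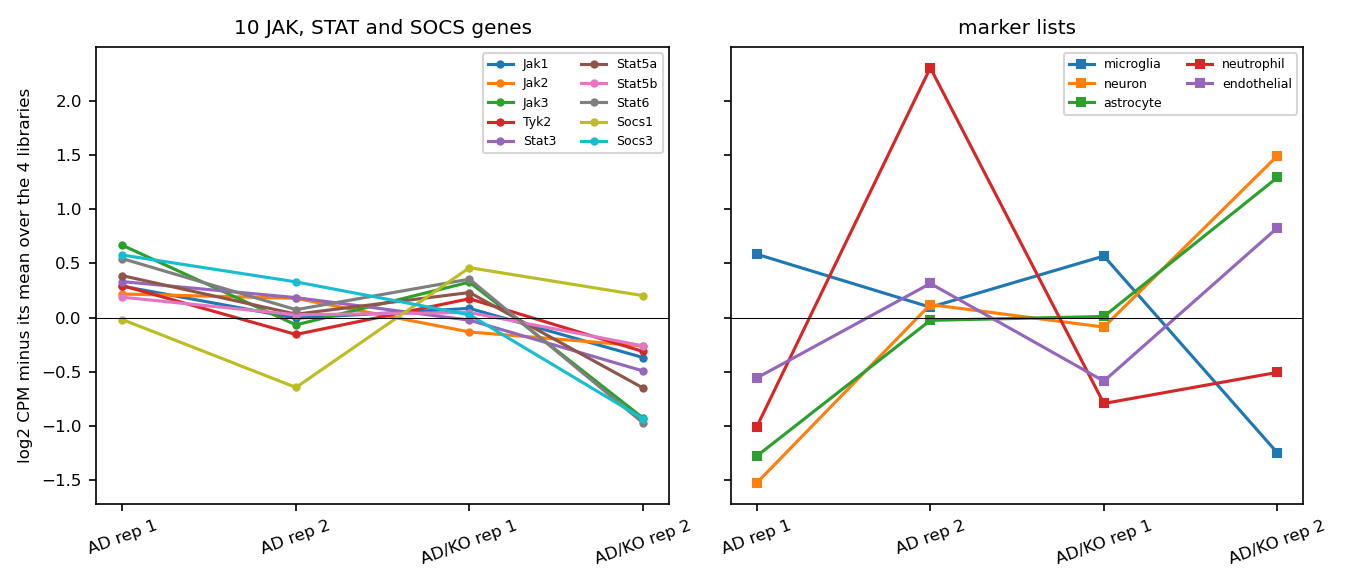
Log2 CPM of the 10 genes (left) and mean log2 CPM of 5 marker lists (right), each minus its own mean over the 4 libraries; lines join the values of 1 gene or list. The microglia list and 9 of the 10 genes are lowest in AD/KO replicate 2, where the neuron and astrocyte lists are highest, and the neutrophil list is highest in AD replicate 2.

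Further genes of both families were compared in the same fit, and 0 of those described here had an adjusted p under 0.05. Stat2 was at 66.6 and 80.5 CPM in AD and at 61.0 and 86.7 CPM in AD/KO, with a log2 fold change of 0.0061. The groups overlapped. Stat4, which serves interleukin-12, had 15 and 61 reads in AD and 16 and 12 reads in AD/KO. The 61 were in AD replicate 2, the library with the most neutrophil RNA. Its log2 fold change was −1.70 (SE 0.80). By CPM both AD/KO libraries were below both AD libraries, as in 21.7% of all genes. Stat4 shares annotated bases with the non-coding gene Gm28177, which was not analysed here.

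Of the other SOCS genes, Socs6 and Socs4 were lower in both AD/KO libraries with TMM scaling (2 of 6, against 21.7% of all genes). The median log2 fold change of the 6 was 0.13, and 1.04 after scaling to the microglia markers. Socs6 was at 58.9 and 40.4 CPM in AD and at 34.4 and 23.5 CPM in AD/KO (log2 fold change −0.78, SE 0.36), and Socs4 at 51.6 and 40.6 CPM and at 36.3 and 29.4 CPM (−0.49, SE 0.30). Socs7 was at 68.7 and 93.1 CPM in AD and at 82.2 and 151 CPM in AD/KO (0.53, SE 0.40). Socs2, a target of STAT5 and inhibitor of growth hormone signalling, was at 3.41 and 6.76 CPM and at 5.79 and 12.8 CPM (0.87, SE 0.61). Both of these were highest in AD/KO replicate 2 and their groups overlapped. Socs5 and Cish overlapped as well, with log2 fold changes of 0.0082 and 0.26.

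The rest of the pathway was read from lists by role, and 0 members of these lists had an adjusted p under 0.05 in either direction (edgeR quasi-likelihood, Benjamini-Hochberg over all genes). Of 26 ligand genes 10 had enough reads to be tested, 6 lower and 4 higher, with a median log2 fold change of −0.11 that was 0.44 after scaling to the microglia markers. Leaving out AD/KO replicate 2 gave 0.02, and leaving out AD replicate 1 gave 0.23. Interleukin-6 (Il6) had 79 and 53 reads in AD and 56 and 26 in AD/KO, at 5.73 and 3.26 CPM and at 2.92 and 1.41 CPM. Oncostatin M (Osm) was at 16.1 and 11.8 CPM in AD and at 11.4 and 3.09 CPM in AD/KO. Lif and Thpo were the ligands with the smallest p among those higher in AD/KO, at log2 fold changes of 1.77 and 1.37, and both were highest in AD/KO replicate 2. Il10, Ifnb1, Ifng, Csf2, Il3 and Il21 had 0 reads in all 4 libraries.

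Of 33 receptor chains 29 were tested, 21 lower and 8 higher, with a median of −0.43 that was 0.17 after scaling to the microglia markers. Leaving out AD/KO replicate 1 gave −1.18, AD/KO replicate 2 −0.085 and AD replicate 1 −0.13. Il2rg, the common gamma chain that signals through Jak3, was at 6.39 and 7.31 CPM in AD and at 3.02 and 0.705 CPM in AD/KO (log2 fold change −1.87, SE 0.77). Il3ra, the interleukin-3 receptor chain, was at 16.7 and 9.22 CPM and at 5.84 and 7.65 CPM (−0.94, SE 0.46). Lepr, the leptin receptor, had 1 and 12 reads in AD and 28 and 34 reads in AD/KO, and Il11ra1 was at 18.4 and 22.7 CPM and at 24.7 and 38.7 CPM (0.62, SE 0.36). The groups did not overlap for these 4 chains. Over the 29 tested chains the groups did not overlap in 3 with AD/KO lower and in 3 with AD/KO higher, against 21.7% and 20.3% of all genes.

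Of 10 further regulators (4 PIAS genes, 5 phosphatase genes and the adaptor gene Sh2b3), 8 were lower and 2 higher, with a median of −0.38 that was 0.35 after scaling to the microglia markers. Without AD/KO replicate 2 the median was 0.0042. Ptprc (CD45) is a phosphatase of blood and immune cells that acts on Janus kinases. It was at 451 and 385 CPM in AD and at 251 and 103 CPM in AD/KO (log2 fold change −1.24, SE 0.52). Pias2 was at 94.1 and 70.7 CPM and at 67.2 and 53.8 CPM (−0.44, SE 0.31). Ptpn11 (SHP2), found in most cell types, was at 94.2 and 131 CPM in AD and at 148 and 256 CPM in AD/KO (0.85, SE 0.40), and Pias4 at 25.8 and 29.7 CPM and at 30.1 and 33.0 CPM. Each of these separated the groups, but they were named for the smallest p in each direction. Over the 10 regulators the groups did not overlap in 3 with AD/KO lower and in 2 with AD/KO higher. The shares of all genes were 21.7% and 20.3%. Ptprc was lowest, and Ptpn11 highest, in AD/KO replicate 2.

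The 27 tested genes (of 28) known as targets of STAT3, STAT5 or STAT6 were lower for 22 and higher for 5, at a median of −0.58 on the log2 scale that was 0.22 after scaling to the microglia markers. The groups did not overlap in 9 of the 27 with AD/KO lower, against 21.7% of all genes, and in 2 with AD/KO higher, against 20.3%. At an unadjusted p under 0.05 there were 2 of the 27, both lower, against 5.48% of all genes in either direction. Hif1a, the oxygen-sensing transcription factor, was at 127 and 134 CPM in AD and at 70.7 and 64.2 CPM in AD/KO (log2 fold change −0.95, SE 0.27, unadjusted p 0.0169, adjusted p 0.653 by edgeR's quasi-likelihood test). Its libraries lay close together within each group, which follows in part from its being named for the smallest p of the list. Pim1, a survival kinase induced by STAT3 and STAT5, was at 16.3 and 24.1 CPM in AD and at 8.71 and 9.88 CPM in AD/KO (−1.12, SE 0.37).

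Of the 5 targets with a higher mean in AD/KO, 2 separated the groups, both at low levels. Pparg, a nuclear receptor linked to STAT6, was at 1.16 and 1.78 CPM in AD and at 2.03 and 4.396 CPM in AD/KO, and Pim2 at 7.40 and 6.76 CPM and at 9.28 and 13.5 CPM. The median of the target list was −0.98 without AD/KO replicate 1 and −0.22 without AD/KO replicate 2. Beside the median of −0.05 for all genes, the medians of the lists described here thus ran from −0.58 (targets) to −0.11 (ligands) and 0.13 (other SOCS genes). With scaling to the microglia markers, the median of all genes was 0.78. The mean of the microglia list differed by −0.68 log2 units (AD/KO minus AD). The part of microglia content in these medians was not tested.

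**Figure D4:**
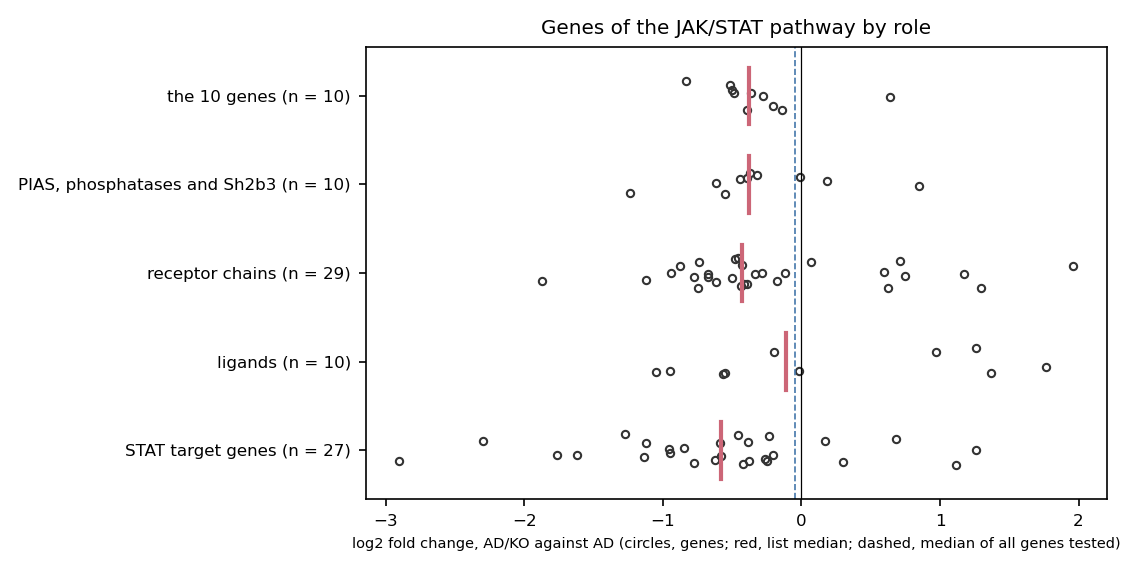
Log2 fold change of AD/KO against AD for each tested gene (circles) of the 10 genes and of the pathway lists by role, with the median of each list shown in red and the median of all genes tested dashed. The 5 medians shown run from −0.58 for STAT target genes to −0.11 for ligands. They are above 0 after scaling to the microglia markers, where the median of all genes is 0.78. The other SOCS genes are not shown.

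Among 137 other genes of the pathway and marker lists with a mean of at least 5 CPM, the profiles most like that of Stat3 over the 4 libraries were those of Socs4, Ccnd1 and Pias2. Their centred log2 CPM differed from that of Stat3 by 0.0920, 0.100 and 0.114 (root mean square over 4 libraries). Among those most like Socs3 were Mcl1 (0.140) and Pias1 (0.164). Mcl1, a survival gene, was at 267 and 204 CPM in AD and at 208 and 107 CPM in AD/KO. Each of these 5 genes was lowest in AD/KO replicate 2, as were 42.4% of all genes. They were picked for their likeness to Stat3 or Socs3, which were lowest there too, so this follows from the choice.

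**Figure D5:**
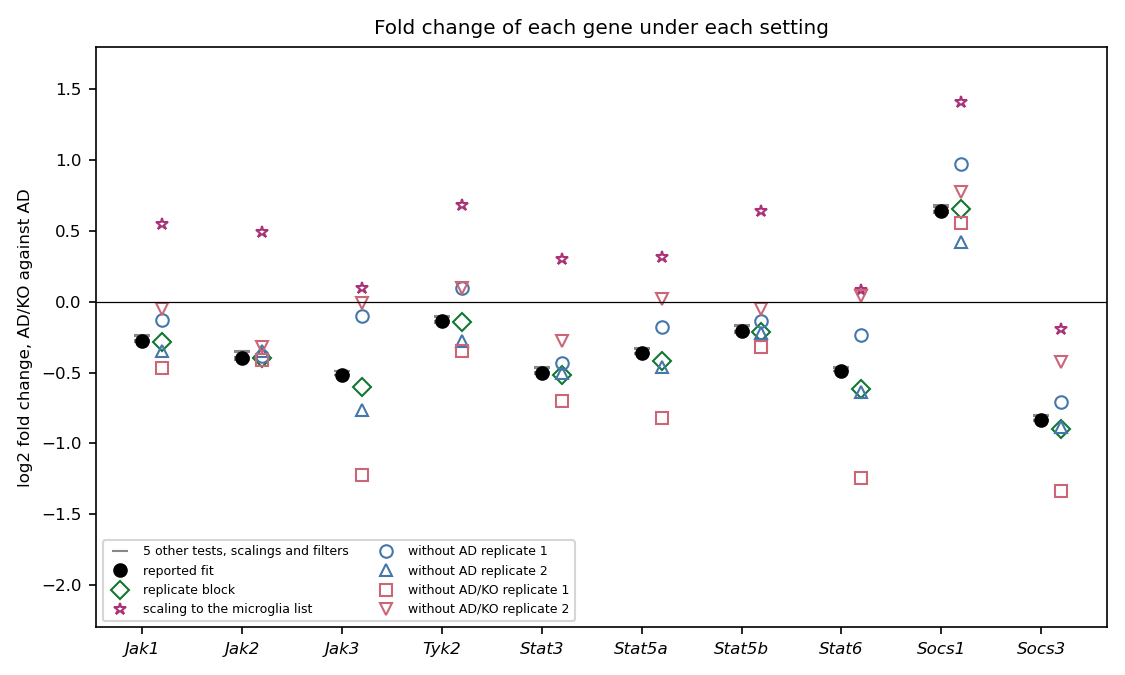
Log2 fold change of each of the 10 genes in the reported fit (black), with the replicate number as a block, with scaling to the microglia markers, with 1 library left out and under 5 other tests, scalings and filters (grey). Socs1 stays above 0 and Socs3 below 0 under every setting shown. Scaling to the microglia markers moves the other 8 above 0, Socs3 from −0.83 to −0.19 and the median of all genes to 0.78.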

How the data were processed

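The authors deposited 1 table of raw read counts per gene for each of the 4 libraries. Per the submitters' processing notes, HISAT2, SAMtools and featureCounts were used with build mm10; strand use, multi-mapped reads and annotation are not given in the sources used here. Per the labels' protocols, ribosomal RNA was depleted and the kit was stranded. Broken lines (11 per table) held no count. All 49993 symbols matched RefSeq (GRCm38.p6), the source of coordinates. Lengths are exons of GENCODE M21 transcripts with a RefSeq match, capped at the RefSeq gene.

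Counts were tested with edgeR 4.0.16 in R 4.3.3: filterByExpr (minimum count 10, total 15), TMM scaling, quasi-likelihood F-test of AD/KO against AD without covariates, Benjamini-Hochberg adjustment over all genes, threshold 0.05. The SE is the log2 fold change divided by the square root of F. CPM are TMM-scaled; log2 CPM of marker lists use a prior of 0.5. Transcripts were aligned with BLAST 2.17.0. The procedure was tested on simulated data. Alternatives were DESeq2 1.42.0, its size factors, no filter, a mean of 1 CPM, legacy quasi-likelihood, the replicate block, scaling to 13 microglia markers, and each library left out.

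Members and lists were chosen with earlier results of these data known. Always named were the 10 genes, Ociad1 and further STAT and SOCS genes; from each further list, the 2 of smallest unadjusted p higher and the 2 lower in AD/KO; and the 3 closest profiles to Stat3 and Socs3; an item that the rule names is not reported here. Ligands at 0 reads were named after their values were seen.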

Additional observations from a re-analysis of the deposited data

How the results depend on the processing

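Each of the 10 genes was compared with the reported fit in each alternative fit. Direction and call were the same in 97 of these pairs of gene and fit. The direction was reversed in 12 pairs and the threshold was newly passed in 1 pair. Scaling to the microglia markers turned the median of the 10 genes to 0.41 and gave 0.55 for Jak1, 0.49 for Jak2, 0.098 for Jak3, 0.69 for Tyk2, 0.30 for Stat3, 0.32 for Stat5a, 0.64 for Stat5b, 0.082 for Stat6 and −0.19 for Socs3, with list medians of 0.35 (PIAS, phosphatases and Sh2b3), 0.17 (receptors), 0.44 (ligands) and 0.22 (targets), against 0.78 for all genes. With 1 library left out, the median of the 10 ran from −0.58 to −0.03, Tyk2 from −0.35 to 0.099, Stat5a from −0.82 to 0.022, Stat6 from −1.25 to 0.038, other SOCS genes from −0.091 to 0.40, PIAS, phosphatases and Sh2b3 from −0.78 to 0.0042 and ligands from −0.52 to 0.23. Genes called then ran from 0 to 654 (654 without AD replicate 2, 50 without AD replicate 1), with 0 of the 10 among them; an arm of 1 library is assumed to vary like the other arm. The number called was 88 with DESeq2 (0 of the 10) and 0 in the reported fit and in the edgeR fits with other scalings, filters or the legacy method. The cause was not tested.

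The groups share replicate numbers 1 and 2, which the labels tie to no litter, batch or day. Libraries with the same number deviated together from the means of their groups (correlation 0.64 across 21439 genes, which are not independent). A fit with the replicate block called 4320 genes (2898 higher, 1422 lower, 20.2% of those tested) and 1 of the 10, Socs3 (log2 fold change −0.90, adjusted p 0.0442 in edgeR, Benjamini-Hochberg; with 1 library left out and no block its adjusted p was 0.262 or more).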
